A study of Mus musculus with 2 samples.

Results

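Irf8, Irf4, Batf3, Zbtb46, Id2, Klf4, Spi1, Cebpb and Cebpd are transcription factor genes with known roles in the lineages of myeloid cells. They were taken as a list of 9 named genes from the 32285 genes counted in 2 single-cell libraries of polyp-infiltrating cells, and each had its own row in both count matrices. The list goes by name and sets no threshold on a measured value. Their levels are described across cell classes defined by marker genes, and between the libraries.

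Both libraries were made from cells of colorectal polyps of C57BL6/J mice, which the labels give as 26 weeks old. The mice had received azoxymethane (AOM), a carcinogen that acts on the colon, at 6 to 7 weeks of age and 10 μg per g by the methods, and then 3 cycles of 1% dextran sodium sulfate (DSS), which injures the colonic epithelium. Polyps were collected 16 weeks into the AOM and DSS treatment, and cells stained for the integrins CD11b and CD11c were sorted. The WT library pooled 5 mice and the Clec7a-/- library pooled 4 mice, whose deletion of Clec7a, the gene of the β-glucan receptor Dectin-1, had been backcrossed to C57BL/6J. The comparison asks how polyp-infiltrating myeloid cells differ when Dectin-1 is missing. Clec7a itself was not analysed here, so the targeted gene gives no check of the labels.

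With 1 library per genotype, differences between mice and between library preparations cannot be told apart from a difference between genotypes, and no test was run. Values are compared by size, and where a pair of values is given without labels, the WT library comes first and the Clec7a-/- library second. Levels are unique molecular identifiers (UMIs, which mark single transcript copies) of a gene per 1000000 UMIs of the same cells (CPM). Brackets hold exact 95% intervals, Poisson for levels, conditional binomial for ratios and Clopper-Pearson for shares of cells, and all of them cover counting error only. A log2 ratio above 0 means a higher level in the Clec7a-/- library. Because 3′ counts of different genes are not per length, levels are compared between cells for the same gene, and between genes only as a ratio whose change across cells is read.

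The members fall into groups by their known roles. IRF8 and BATF3 are needed for conventional type 1 dendritic cells (cDC1), which present antigen of dead cells to CD8+ T cells, and IRF8 also steers progenitors toward monocytes and away from granulocytes. IRF4 is known for conventional type 2 dendritic cells and for plasma cells, and ZBTB46 marks the conventional dendritic cell (DC) lineage. ID2 has no DNA-binding region and blocks E proteins, and it is needed in DCs and in many T cells and innate lymphoid cells. KLF4 is a zinc finger factor of monocytes and of some DCs. PU.1, the product of Spi1, is an ETS factor that all myeloid lineages use. C/EBPβ and C/EBPδ are leucine zipper factors of granulocytes and inflammatory macrophages, and Cebpb is used in emergency granulopoiesis.

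In the GRCm38 build with GENCODE M21 gene models, all 9 are protein-coding genes. Irf8 (ENSMUSG00000041515) lies at chr8:120736358-120756694 on the plus strand, Irf4 (ENSMUSG00000021356) at chr13:30749226-30766976 on the plus strand, and Batf3 (ENSMUSG00000026630) at chr1:191097847-191108945 on the plus strand. Zbtb46 (ENSMUSG00000027583) lies at chr2:181387762-181459426 and Id2 (ENSMUSG00000020644) at chr12:25093799-25097140, both on the minus strand. Klf4 (ENSMUSG00000003032) lies at chr4:55527143-55532466 on the minus strand and Spi1 (ENSMUSG00000002111) at chr2:91082390-91115756 on the plus strand. Cebpb (ENSMUSG00000056501) lies at chr2:167688915-167690418 and Cebpd (ENSMUSG00000071637) at chr16:15887286-15891031, both on the plus strand. The models of Cebpb and Tmem189 overlap on opposite strands, and so do those of Cebpd and Spidr. Whether the counting used strand is not given in the sources used here, so reads of these pairs may not be told apart. Irf8 overlaps Gm20388 and Zbtb46 overlaps the small nuclear RNA gene Gm22708, both on the same strand, where strand cannot separate reads.

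Irf8 and Cebpb had opposite profiles across the cells, Irf8 highest in mature DC-like cells and Cebpb highest in neutrophil-like cells, and the 250 bases before the start of each are shown for that reason. Both are from RefSeq on GRCm38.p6, where the start is the same as that of the GENCODE model, and both are on the plus strand, at chr8:120736108-120736357 for Irf8 and chr2:167688665-167688914 for Cebpb. Capitals mark matches to the GC box (GGGCGG) and to a KLF motif (CCNCNCCC) on either strand. The complement of the GC box can lie within the KLF motif, so that the same bases can count for both.
Irf8: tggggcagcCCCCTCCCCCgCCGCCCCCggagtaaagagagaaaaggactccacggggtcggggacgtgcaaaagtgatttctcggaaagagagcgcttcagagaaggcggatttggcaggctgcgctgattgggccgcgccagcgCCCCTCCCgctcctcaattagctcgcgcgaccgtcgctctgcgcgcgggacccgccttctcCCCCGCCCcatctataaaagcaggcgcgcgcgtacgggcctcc
Cebpb: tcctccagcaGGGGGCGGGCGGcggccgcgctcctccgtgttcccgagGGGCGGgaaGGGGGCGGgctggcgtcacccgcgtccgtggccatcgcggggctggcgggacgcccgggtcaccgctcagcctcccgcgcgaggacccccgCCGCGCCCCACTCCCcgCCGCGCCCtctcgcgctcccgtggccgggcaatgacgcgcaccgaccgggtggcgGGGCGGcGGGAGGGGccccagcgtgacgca
The Irf8 window holds 2 GC boxes and 5 KLF matches, and that of Cebpb holds 5 GC boxes and 6 KLF matches. Of 32851 RefSeq windows of this length, 32.7% hold a GC box and 45.9% a KLF match, and the GC content of these windows is 67.2% for Irf8 and 81.6% for Cebpb against a median of 52.4%. Neither window holds the letters searched for PU.1 (GAGGAAGT, in 2.4% of windows), an ETS-IRF composite (GGAANNGAA, 7.0%), an interferon response element (GAAANNGAA, 7.1%), C/EBP (TTGCNNAA, 9.6%) or AP-1 (TGANTCA, 6.7%). A match or its absence describes the letters of the window only. Of the 9 members, 7 had an entry in the RefSeq table.

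The deposited matrices held 3467 WT and 3080 Clec7a-/- barcodes with 15869215 and 11808230 UMIs, of which 2696 and 1999 cells passed the filter of the methods. Kept cells had a median of 3412.5 UMIs (WT) and 2671 UMIs (Clec7a-/-). The libraries shared 17 barcode sequences, carried by 20 kept cells. Clusters were drawn without the members, so that their levels did not shape the 23 clusters. All of the listed markers of the neutrophil-like, monocyte-like, macrophage-like, mature DC-like and T cell-like classes had UMIs in their own class in both libraries. The cDC1-like class, with Itgae, Clec9a and Xcr1 among its 10 leading genes, lacked 1 of 10 cDC1 markers in the WT library and 0 of 10 in the other. T cell-like cells, led by Foxp3 and Cd3g, are outside what the labels call myeloid cells. Clusters 1, 6, 12, 15, 16 and 20 did not meet the naming rule and are called by number. Orders of levels are given among the 6 classes and clusters 1, 6, 12 and 16, each with at least 50 cells in both libraries, unless another cluster is named. Cluster 6 was led by Wnt11 and Arap2, cluster 12 by Aldoc, Pltp and Arg1, cluster 16 by the heat shock genes Hspa1a and Hspa1b with 10 of 14 macrophage markers, and cluster 1 by the monocyte marker Chil3 with 11 of 14 neutrophil markers. Cluster 15, with 129 and 41 cells, was led by Col15a1 and Csf1, and cluster 20, with 17 and 12 cells, by the epithelial gene Cldn3.

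The classes differed in size between the libraries. The mature DC-like class held 141 WT cells (5.23% of the library) and 239 Clec7a-/- cells (11.96%), and the cDC1-like class held 72 (2.67%) and 124 (6.20%). The macrophage-like class held 351 (13.02%) and 173 (8.65%), the monocyte-like class 671 (24.9%) and 463 (23.2%), the neutrophil-like class 546 (20.3%) and 361 (18.1%), and the T cell-like class 65 (2.41%) and 121 (6.05%). Within the monocyte-like class, cluster 0 (254 and 191 cells) met the naming rule by 4 of 12 markers, Ccl24, Mmp19, Fn1 and Sdc1. Ly6c2, Chil3 and Plac8 did not count there, so values of the monocyte-like class join cells with different monocyte markers. Cluster 1, unnamed but with 11 of 14 neutrophil markers, held 333 WT cells (12.35%) and 86 Clec7a-/- cells (4.30%) outside the neutrophil-like class. Within the neutrophil-like class, clusters 3 and 8 held 275 and 222 WT cells, whereas cluster 5 held 273 Clec7a-/- cells. The median WT cell of that class had 2725.5 UMIs and the median Clec7a-/- cell 1077, so its values come from different clusters at different depths.

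**Figure D1:**
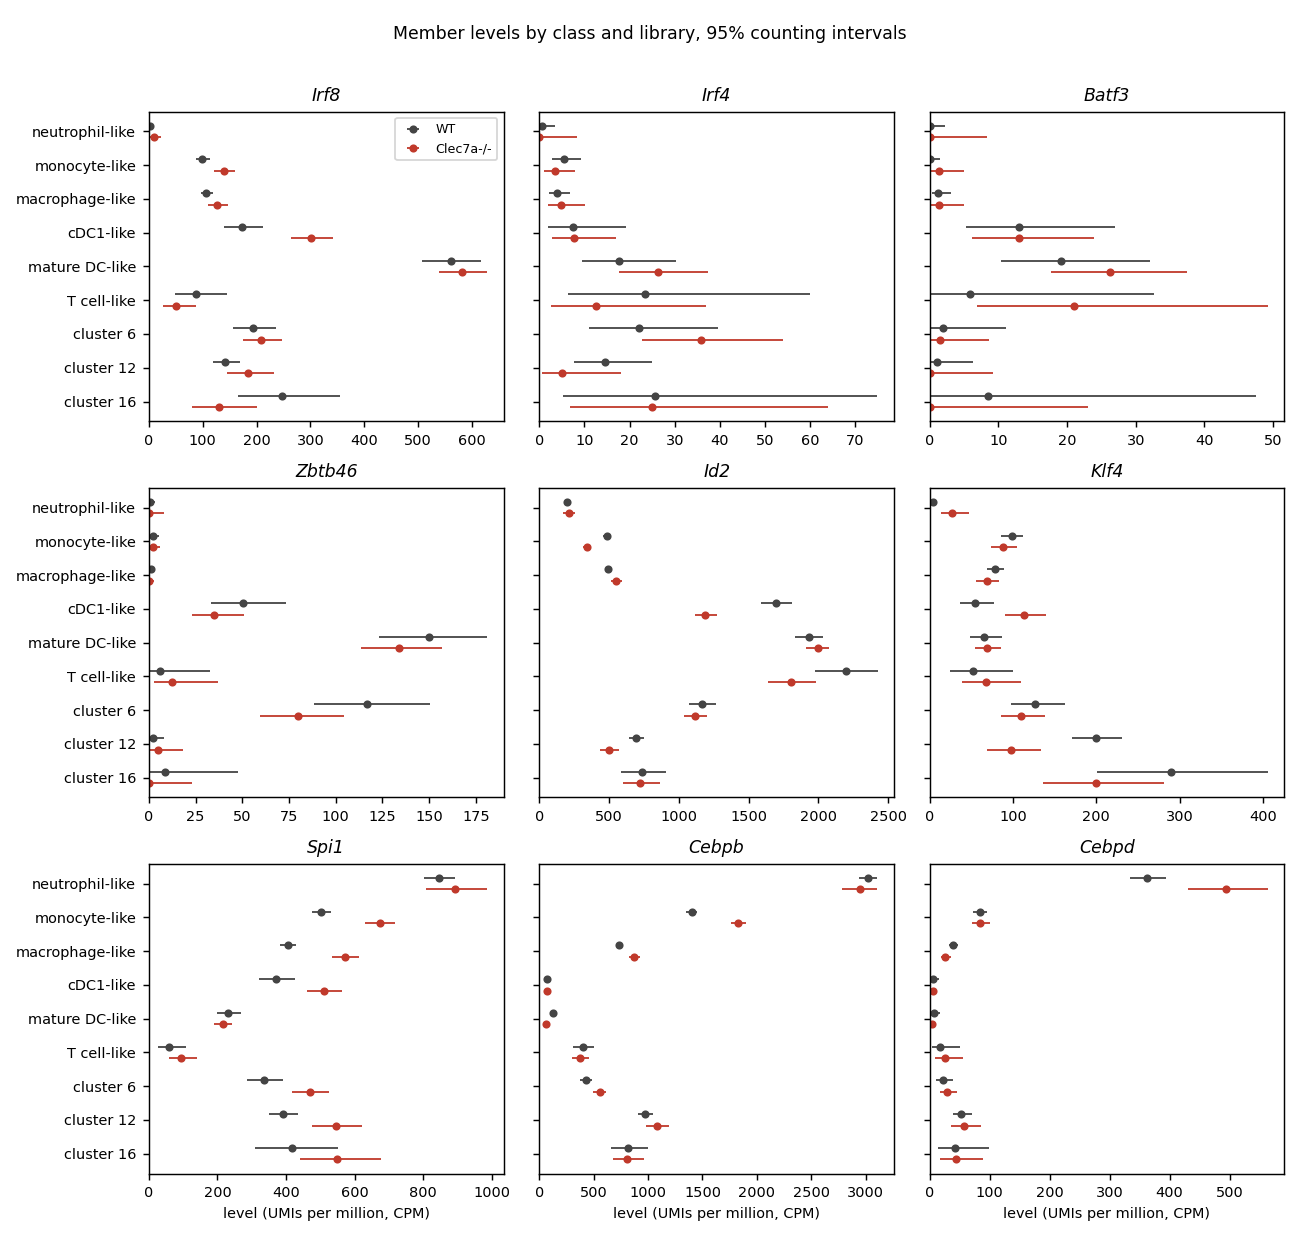
Level of each member in CPM (x axis, linear and starting at 0, with its own range per gene) in 6 marker-defined classes and clusters 6, 12 and 16 (y axis). Points are the WT (grey) and Clec7a-/- (red) libraries and bars are exact 95% Poisson intervals for counting error. Irf8, Batf3 and Zbtb46 sat highest in mature DC-like cells among the classes, and Cebpb, Cebpd and Spi1 sat highest in neutrophil-like cells.

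Irf8 was highest in mature DC-like cells and lowest in neutrophil-like cells in both libraries. In mature DC-like cells it stood at 561 CPM (508 to 618, 411 UMIs) in WT cells and 582 CPM (538 to 628, 665 UMIs) in Clec7a-/- cells. In cDC1-like cells it stood at 174 (140.3 to 213, 93 UMIs) and 301 (263 to 342, 231 UMIs). The cDC1-like cells, the type that most depends on IRF8, thus held less Irf8 than the mature DC-like cells, by 3.23-fold in the WT library and 1.93-fold in the other. Monocyte-like cells had 99.3 CPM (87.1 to 113) and 139 CPM (121 to 159.7), and macrophage-like cells had 107 CPM (96.0 to 119) and 127 CPM (109.6 to 147). These classes did not differ from each other beyond counting error in either library. Neutrophil-like cells held 4 Irf8 UMIs in each library, or 2.49 CPM (0.678 to 6.37) and 9.05 CPM (2.47 to 23.2). This is 0.0251 and 0.0651 of the monocyte-like level.

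Among the remaining cells, the order of Irf8 levels was not the same in the libraries. In the WT library cluster 16 at 247 CPM, cluster 6 at 193 CPM, cDC1-like cells and cluster 12 at 142 CPM followed the mature DC-like class, and no neighbours among these 4 differed beyond counting error. In the Clec7a-/- library the cDC1-like class came second and lay above cluster 6 at 209 CPM, by 0.52 (0.21 to 0.84) on the log2 scale. T cell-like cells had 87.8 and 50.6 CPM, on 15 and 12 UMIs. B or plasma cell-like cells, of which there were 11 and 21, had 223 and 150.0 CPM.

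Irf8 levels also differed within classes, and in the same direction in both libraries. Cluster 14 of the mature DC-like class, which expressed Il12b, had 740.1 and 672 CPM, and cluster 9, led by Adgrg6, Tcf7 and Fscn1, had 376 and 425 CPM. Within the monocyte-like class, cluster 7, with the blood monocyte genes Ly6c2 and Plac8 among its leading genes, had 41.1 and 50.2 CPM, cluster 2 had 52.4 and 84.6 CPM, and cluster 0, led by Ccl24 and Pla1a, had 149.8 and 203 CPM. Irf8 was thus 3.65-fold and 4.04-fold higher in cluster 0, named from Ccl24, Mmp19, Fn1 and Sdc1, than in cluster 7. In the macrophage-like class, cluster 10, led by Tmem26 and Pgf and with Mmp13 and Mrc1, had 164 and 187 CPM against 79.0 and 91.4 CPM in cluster 4, led by Igf1.

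Batf3, the partner of IRF8 in cDC1, was sparse. It had 32 UMIs in all WT cells and 52 in all Clec7a-/- cells. In mature DC-like cells it stood at 19.1 CPM (10.4 to 32.0, 14 UMIs) and 26.2 CPM (17.7 to 37.5, 30 UMIs), and in cDC1-like cells at 13.08 CPM (7 UMIs) and 13.02 CPM (10 UMIs). T cell-like cells had 5.86 CPM (1 UMI) and 21.1 CPM (5 UMIs), between them in the Clec7a-/- library. No neighbours in the order of these 3 classes differed beyond counting error in either library. Monocyte-like cells held 0 and 2 Batf3 UMIs, macrophage-like cells 4 and 2, and neutrophil-like cells 0 in both libraries, for which 3 counts would be 1.87 and 6.79 CPM. Of the Batf3 UMIs, 43.8% and 57.7% were in mature DC-like cells and 21.9% and 19.2% in cDC1-like cells. A UMI of Batf3 was seen in 8.33% and 5.65% of cDC1-like cells before thinning, and after each cell was thinned to 1000 UMIs in 1.39% and 0.840%, so this depth cannot show which cDC1-like cells use the gene.

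Zbtb46 lay mainly in the DC classes and cluster 6. Mature DC-like cells had 150.1 CPM (123 to 181, 110 UMIs) and 134 CPM (113 to 157, 153 UMIs), cluster 6 had 117 CPM (88.5 to 151, 58 UMIs) and 79.6 CPM (59.3 to 105, 51 UMIs), and cDC1-like cells had 50.5 CPM (33.3 to 73.4) and 35.1 CPM (23.2 to 51.1), on 27 UMIs each. The order was the same in both libraries, and cluster 6 lay 2.31-fold and 2.27-fold above the cDC1-like class. In the WT library cluster 6 did not differ from the mature DC-like class beyond counting error, at -0.36 (-0.85 to 0.11) on the log2 scale. Monocyte-like cells held 6 and 3 Zbtb46 UMIs, macrophage-like cells 3 and 0, and neutrophil-like cells 1 and 0. The level in mature DC-like cells was 60.0-fold that of monocyte-like cells in the WT library, with a log2 interval of 4.74 to 7.38, and 64.8-fold in the Clec7a-/- library, with an interval of 4.44 to 8.31. Together the mature DC-like class and cluster 6 held most of its UMIs, 50.9% and 26.9% in the WT library and 60.5% and 20.2% in the other.

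Cluster 6 had Zbtb46 among its 10 leading genes although the gene was left out of the clustering. Its cells held 2 of 12 mature DC markers by the rule and stay unnamed. In it the Irf8 level was 193 CPM (156 to 236) and 209 CPM (175 to 248), and the Irf4 level was 22.1 CPM (11.03 to 39.5, 11 UMIs) and 35.9 CPM (22.8 to 53.9, 23 UMIs). Batf3 had 1 UMI there in each library. Cebpb, at 426 and 554 CPM, lay 5.70-fold and 7.88-fold above its level in cDC1-like cells.

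Irf4 had 93 UMIs in all WT cells and 100 in all Clec7a-/- cells. Its levels per class rested on few counts, 17.7 CPM (9.44 to 30.3, 13 UMIs) and 26.2 CPM (17.7 to 37.5, 30 UMIs) in mature DC-like cells and 7.48 and 7.81 CPM in cDC1-like cells, on 4 and 6 UMIs. In both libraries cluster 6 and the mature DC-like class did not differ beyond counting error. The small B or plasma cell-like class stood highest, with 273 and 300.0 CPM on 11 and 14 UMIs. Within the mature DC-like class, cluster 9 had 33.2 and 50.4 CPM and cluster 14 had 2.69 and 12.4 CPM, the opposite of the order for Irf8. In the Clec7a-/- library this Irf4 difference was 2.03 (0.84 to 3.34) on the log2 scale in favour of cluster 9.

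The ratio of Irf8 to Irf4 UMIs restates this split from the same counts. It compares counts of different genes, so only its change between cells can be read. It was 11.3 (6.28 to 22.5) and 8.43 (5.35 to 13.96) in cluster 9, and 8.73 (4.67 to 18.1) and 5.83 (3.72 to 9.51) in cluster 6. In cluster 14 of the Clec7a-/- library it was 54.2 (28.3 to 119). In B or plasma cell-like cells there were fewer Irf8 than Irf4 UMIs, with ratios of 0.818 and 0.500. Over all cells it was 15.9 and 16.1.

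Id2 had the highest counts of the DC-associated members, with T cell-like, mature DC-like and cDC1-like cells on top. T cell-like cells had 2196 and 1808 CPM, mature DC-like cells 1933 and 1995.5 CPM, and cDC1-like cells 1695 (1587 to 1809) and 1191 (1115 to 1271) CPM. Cluster 6 had 1169 and 1115 CPM, and the small proliferating cluster 17, with 10 and 32 cells, had 1679 and 1583 CPM. Macrophage-like cells had 494 and 551 CPM, monocyte-like cells 486 and 342 CPM, and neutrophil-like cells 199.7 and 213 CPM. The order of the first 2 classes differed between libraries, and in the Clec7a-/- library they did not differ beyond counting error. In T cell-like cells, the 5 cells with the most Id2 UMIs held 51.7% and 27.3% of them, with up to 92 and 41 UMIs in a cell. After thinning, Id2 was seen in 82.2% and 79.6% of mature DC-like cells and 60.0% and 62.6% of T cell-like cells. The shares were 68.1% and 56.3% of cDC1-like cells and 17.9% and 17.2% of neutrophil-like cells.

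Klf4 levels stood high in clusters outside the named classes. Cluster 16, led by heat shock genes, had 290.1 CPM (201 to 405) and 199 CPM (136 to 282), cluster 12 had 199 CPM (171 to 231) and 97.5 CPM, and cluster 6 had 127 and 109 CPM. The small cluster 20 had 115 CPM on 4 UMIs and 420 CPM (260 to 641) on 21 UMIs. Among the classes, cDC1-like cells were near the bottom of the order in the WT library, at 54.2 CPM, and on top in the other, at 113 CPM. Monocyte-like cells had 98.4 and 88.1 CPM, macrophage-like cells 78.7 and 68.9 CPM, mature DC-like cells 65.5 and 69.1 CPM, and T cell-like cells 52.7 and 67.4 CPM. Across the latter 4 classes in the Clec7a-/- library no neighbours in the order differed beyond counting error. Neutrophil-like cells had 7 and 12 Klf4 UMIs, or 4.36 and 27.2 CPM.

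Spi1 was found in every class. Among the classes it was highest in neutrophil-like cells, at 847 CPM (802 to 893) and 894 CPM (808 to 987), then in monocyte-like cells at 503 and 673 CPM and macrophage-like cells at 405 and 572 CPM. Cluster 1 stood between neutrophil-like and monocyte-like cells, at 651 CPM (611 to 692) and 727 CPM (626 to 840). Among DC classes, cDC1-like cells had 372 CPM (322 to 427) and 510.3 CPM (461 to 563) and mature DC-like cells had 232 CPM (198 to 269.5) and 215 CPM (189 to 244). The mature DC-like level was thus below the cDC1-like level, by 0.68 and 1.25 on the log2 scale, the reverse of Irf8 and Zbtb46. T cell-like cells, outside the myeloid lineages, had 58.6 and 92.7 CPM on 10 and 22 UMIs.

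Cebpb spanned a wide range. Neutrophil-like cells had 3019 CPM (2935 to 3106) and 2942 CPM (2784 to 3106), monocyte-like cells 1400.0 CPM (1353 to 1448) and 1829.5 CPM (1761 to 1900.4), and macrophage-like cells 734 and 874 CPM. The lowest levels were in the DC classes, with 126 CPM (101 to 154) and 65.6 CPM (51.6 to 82.2) in mature DC-like cells and 74.8 CPM (53.4 to 102) and 70.3 CPM (52.8 to 91.7) in cDC1-like cells. Neutrophil-like cells lay 2.16-fold and 1.61-fold above monocyte-like cells, and cDC1-like cells were at 0.0534 and 0.0384 of the monocyte-like level. Within the monocyte-like class it ran opposite to Irf8, with 1666 and 2299 CPM in cluster 7, 1574 and 2072 CPM in cluster 2, and 1166 and 1528 CPM in cluster 0. After thinning it was seen in 92.9% and 91.7% of neutrophil-like cells and in 10.4% and 6.22% of mature DC-like cells.

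Cebpd followed Cebpb at lower counts. Neutrophil-like cells had 363 CPM (334 to 393) and 493 CPM (430.0 to 563), cluster 1 had 186 and 225 CPM, and monocyte-like cells had 83.8 and 84.7 CPM. In macrophage-like cells there were 39.8 CPM (33.3 to 47.3) and 26.4 CPM (18.7 to 36.3). Cebpd was near its floor in DCs, with 3 and 4 UMIs in cDC1-like cells and 6 and 4 UMIs in mature DC-like cells. Its level in neutrophil-like cells was 4.33-fold and 5.83-fold that of monocyte-like cells.

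Within classes, few members were past the size rule between the libraries. A member was counted where it had at least 20 UMIs over both libraries, a ratio of at least 1.5-fold and an interval that excluded no difference. The same rule over all genes measured gives the background for each class. In the neutrophil-like class 4 of 9 members were measured, and 0 were higher and 0 lower in the Clec7a-/- library, where 9.7% of 4524 genes were higher and 5.81% lower. Klf4 fell short of 20 UMIs there, on 7 and 12 UMIs, and had a ratio of 2.64 (1.18 to 4.22). In the monocyte-like class 6 were measured and 0 were past the rule in either direction, against 3.84% of 7862 genes higher and 3.65% lower. In the macrophage-like class 7 were measured, 0 were higher and 1, Cebpd, was lower, against 2.97% of 8597 genes higher and 3.48% lower. In the cDC1-like class 6 were measured, 2, Irf8 and Klf4, were higher and 0 lower, against 6.23% of 5438 genes higher and 3.97% lower. In the mature DC-like class 8 were measured, 0 were higher and 1, Cebpb, was lower, against 3.25% of 6371 genes higher and 4.5% lower. In the T cell-like class 5 were measured and 0 were past the rule, against 3.06% of 3754 genes higher and 3.76% lower. With so few members per class, 1 or 2 past the rule are counts and not a rate to set against the background.

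The median log2 ratio of the members measured was 0.08 in neutrophil-like, 0.20 in monocyte-like, 0.25 in macrophage-like, 0.18 in cDC1-like, 0.05 in mature DC-like and -0.09 in T cell-like cells. Over all genes measured the medians ran from -0.01 in macrophage-like to 0.06 in cDC1-like cells. The members measured in most classes are those with high counts.

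**Figure D2:**
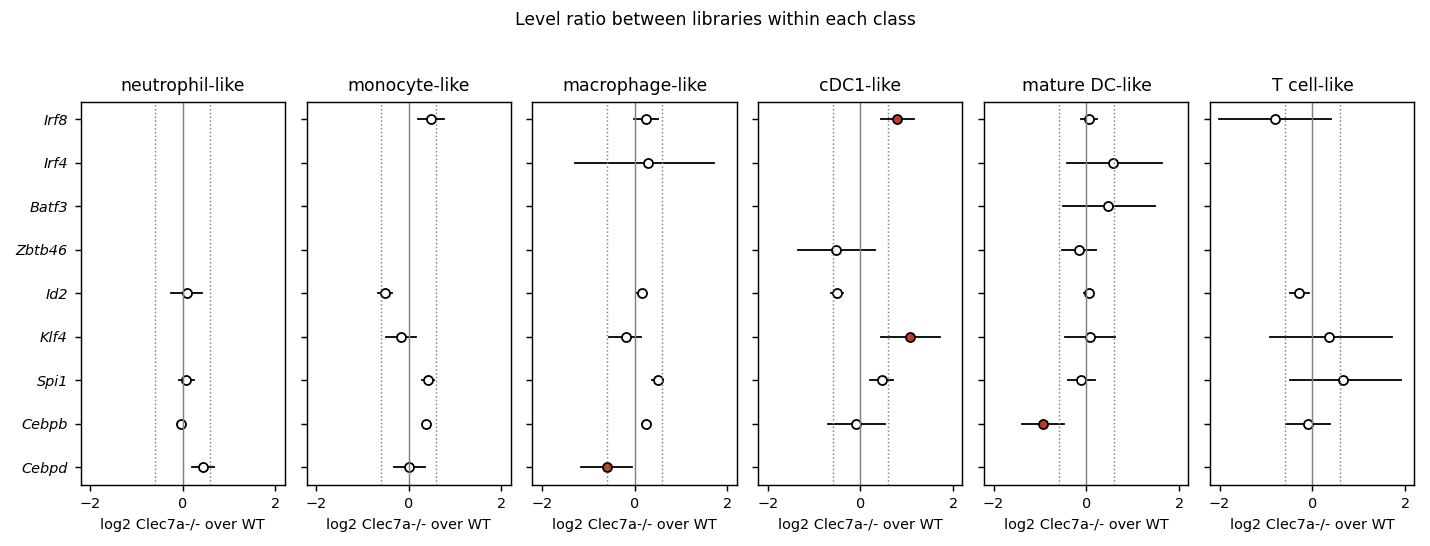
Log2 ratio of the Clec7a-/- over the WT level (x axis) for each member with at least 20 UMIs in the class (y axis), in 6 panels for the 6 classes. Lines are exact 95% conditional intervals for counting error, dotted lines stand at 1.5-fold, and filled points are past the rule. These are Cebpd in macrophage-like cells at -0.59, Irf8 at 0.79 and Klf4 at 1.06 in cDC1-like cells, and Cebpb at -0.94 in mature DC-like cells.

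In the cDC1-like class the Irf8 ratio was 0.79 (0.44 to 1.15). The UMIs were concentrated in few cells, since the 5 cells with the most Irf8 UMIs held 44.1% of them in WT and 35.1% in Clec7a-/-, and the highest cell had 15 and 33 UMIs. The share of cells with an Irf8 UMI was 45.8% (33 of 72) and 49.2% (61 of 124). After thinning it was 19.4% (11.1 to 30.5, 14 of 72 cells) and 17.6% (11.3 to 25.7, 21 of 119 cells, with 5 shallower cells left out). In neutrophil-like cells it was 0.372% of 537 WT cells with 9 left out, and 0 of 204 Clec7a-/- cells with 157 left out, for which a floor of 3 counts allows a share of up to 1.47%. The thinned share and the CPM went opposite ways, so no order was read from the share. The Irf8 ratio was 0.35 when each cell counted equally, 0.40 with 10 components and 0.34 with classes from marker scores, all under 1.5-fold.

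Klf4 in the cDC1-like class had 54.2 CPM (36.3 to 77.8, 29 UMIs) and 113 CPM (90.7 to 139.7, 87 UMIs), a ratio of 1.06 (0.44 to 1.72). The 5 cells with the most UMIs held 51.7% and 57.5% of them, with up to 4 UMIs in a WT cell and 16 in a Clec7a-/- cell. A Klf4 UMI was seen in 23.6% (17 of 72) and 21.8% (27 of 124) of cells, and after thinning in 9.72% and 10.1%. The ratio was 0.17 when cells with up to 10% mitochondrial UMIs were kept, and 0.54 to 1.08 under all other settings tried.

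Other members differed by less than the rule in this class. Id2 was lower by 0.51 (0.38 to 0.64) on the log2 scale, Spi1 was higher by 0.46 (0.21 to 0.71), and Zbtb46 had a ratio of -0.52 (-1.35 to 0.30). Markers of other cells were present in these cells. The summed level of 12 mature DC markers was 6614 and 5428 CPM with 2 at 0 in each library, and that of 14 neutrophil markers 2039 and 1541 CPM with 2 and 1 at 0. The summed level of 14 macrophage markers was 86.0 CPM in the WT library, where 5 were at 0, and 194 CPM in the Clec7a-/- library, where 4 were at 0. For 12 monocyte markers it was 348 and 509 CPM, with 5 at 0 in each, Ly6c2 and Ccr2 among them. The 10 cDC1 markers themselves summed to 1819 and 1635 CPM. Their part in the Irf8 and Klf4 ratios was not tested.

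In the mature DC-like class, Irf8 (0.05, -0.13 to 0.23), Id2 (0.05) and Zbtb46 (-0.16, -0.53 to 0.20) had ratios near 0, and the Irf8 interval leaves room for a difference of up to 0.23 on the log2 scale. Irf4 (0.57, -0.42 to 1.63) and Batf3 (0.46, -0.50 to 1.49) had too few UMIs for a difference of that size to be detectable. Cebpb was lower, at 126 CPM (92 UMIs) against 65.6 CPM (75 UMIs), a ratio of -0.94 (-1.40 to -0.48). It was lower in both clusters, with 152 and 76.8 CPM in cluster 9 and 99.6 and 59.2 CPM in cluster 14. Of these UMIs 39.1% and 37.3% were in the 5 cells with the most. The summed level of 14 neutrophil markers in this class was 1498 CPM in WT cells and 555 CPM in Clec7a-/- cells, with 1 marker, Ngp, at 0 in each, so that they moved with Cebpb. Their part in the result was not tested. The Cebpb ratio kept its sign under all settings tried and was -0.38 with reciprocal PCA, -0.44 with 30 components or marker-score classes and -0.52 with the 10% mitochondrial limit.

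In monocyte-like and macrophage-like cells several members with high counts differed by less than 1.5-fold beyond counting error. Cebpb was higher in the Clec7a-/- library by 0.39 (0.31 to 0.46) in monocyte-like and 0.25 in macrophage-like cells, and Spi1 by 0.42 (0.30 to 0.54) and 0.50 (0.37 to 0.62). Irf8 was higher by 0.49 (0.21 to 0.76) in monocyte-like cells, and in macrophage-like cells its ratio was 0.25 (-0.01 to 0.51). Id2 was lower by 0.50 (0.35 to 0.66) in monocyte-like cells, where cluster 0 had 645 and 398 CPM. In clusters 2 and 7 the Id2 ratio was -0.18 (-0.51 to 0.13) and -0.21 (-0.68 to 0.26), not beyond counting error. Spi1 in cluster 2 stood at 571 and 887 CPM and in macrophage-like cluster 10 at 488 and 794 CPM. Its ratio was smaller in their sister clusters, at 0.48 (0.29 to 0.67) in cluster 0, 0.13 (-0.15 to 0.40) in cluster 7 and 0.27 (0.09 to 0.44) in cluster 4.

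Cebpd in macrophage-like cells stood at 39.8 CPM (130 UMIs) and 26.4 CPM (38 UMIs), a ratio of -0.59 (-1.15 to -0.06). Its sign depended on the processing, from -0.61 to 0.35. The summed level of 14 neutrophil markers in these cells was 2755 CPM with 0 markers at 0 in the WT library and 1903 CPM with 1 at 0 in the other, and their part was not tested. In neutrophil-like cells the Cebpd ratio was 0.44 (0.21 to 0.67). There the clusters differed, with 372 and 420 CPM in cluster 3 and 165 and 494 CPM in cluster 5, while cluster 8 had only 6 Clec7a-/- cells.

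Ratios of single members are also given for clusters outside the named classes, for which no share over all genes was computed. In cluster 12, Klf4 stood at 199 and 97.5 CPM, a ratio of -1.03 (-1.57 to -0.53). In cluster 16, Irf8 stood at 247 and 131 CPM on 29 and 21 UMIs, a ratio of -0.92 (-1.80 to -0.06). In cluster 6, Zbtb46 had a ratio of -0.55 (-1.12 to 0.02) and Spi1 was higher by 0.49.

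Over all cells, all 9 members were measured, 4 (Irf8, Irf4, Batf3 and Zbtb46) were higher and 1 (Cebpd) lower in the Clec7a-/- library. The background was 12.4% of 11461 genes higher and 5.29% lower, with a median ratio of 0.15. TMM scaling, which sets the bulk of genes level, shifts all of these ratios by -0.15. Irf8 stood at 120.2 CPM in WT cells and 213 CPM in Clec7a-/- cells, which is 0.83 (0.72 to 0.93) on the log2 scale. Zbtb46 stood at 17.6 and 33.5 CPM (0.93, 0.66 to 1.20), Irf4 at 7.57 and 13.2 CPM (0.81, 0.38 to 1.23) and Batf3 at 2.61 and 6.88 CPM (1.40, 0.74 to 2.08). Id2 was higher by 0.46, at 645 and 887 CPM. Cebpb was lower by 0.41 on this scale, at 1261 and 946 CPM, and Cebpd stood at 108 and 69.8 CPM, with a ratio of -0.62 (-0.77 to -0.48). Klf4 (0.04) and Spi1 (0.07) were close to level, and with TMM scaling the Spi1 ratio was -0.077.

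These whole-library ratios mix the shares of UMIs that the classes hold with the levels inside them. To set these apart in part, WT levels in 16 groups of cells were weighted by the Clec7a-/- shares of UMIs, and the reverse. Shares of UMIs hold both the number of cells and their depth. The neutrophil-like class had 20.3% and 18.1% of cells but 13.1% and 5.85% of UMIs, so its change in share is not one of cell number alone. Each named class was kept whole. Shifts between clusters within a class, as in the neutrophil-like class, thus stay in the levels. The change in shares alone, at WT levels, gave log2 ratios of 0.61 for Irf8, 0.71 for Irf4, 1.23 for Batf3, 1.19 for Zbtb46 and 0.59 for Id2. For Cebpb it gave -0.61 and for Cebpd -0.79. With shares held at those of WT, the ratios were 0.29 for Irf8, 0.09 for Irf4, 0.31 for Batf3, -0.19 for Zbtb46 and -0.11 for Id2, and 0.14 for Cebpb and 0.24 for Cebpd. For Klf4 the values were 0.17 from shares alone and -0.23 with shares held. For Zbtb46, Id2, Cebpb and Cebpd the sign with shares held was thus opposite to that over all cells. For Klf4 no change of sign is read, since its ratio over all cells was 0.04 (-0.10 to 0.19). Values with shares held carry no interval. Spi1 had -0.27 from shares alone and 0.31 with shares held at those of WT, against 0.07 as measured. Values from shares alone and with WT shares held use different weights and need not add up to the measured ratio. With shares held at those of Clec7a-/-, the complement of shares alone, Spi1 had 0.34.

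**Figure D3:**
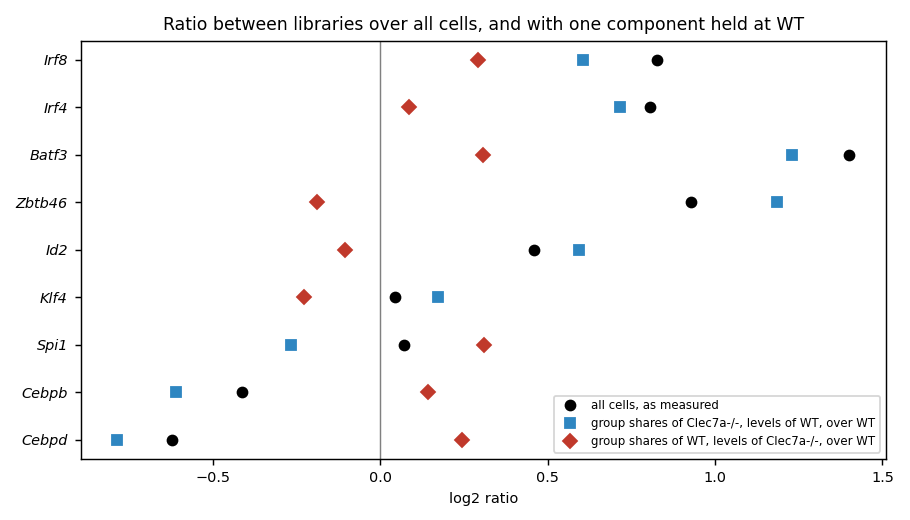
Log2 ratio of the Clec7a-/- over the WT level over all cells (x axis) for the 9 members (y axis). Black circles are the measured ratios. Blue squares use Clec7a-/- group shares of UMIs with WT levels, and red diamonds use WT group shares of UMIs with Clec7a-/- levels. The squares lie near the measured ratios for Irf4 (0.71 and 0.81) and on the far side of them for Zbtb46 (1.19 and 0.93), and the diamonds lie between -0.23 for Klf4 and 0.31 for Spi1 and Batf3.

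Where each member's UMIs were found differed between the libraries, both with the shares of the classes and with the levels inside them. Mature DC-like cells held 27.8% of Irf8 UMIs in WT cells and 41.3% in Clec7a-/- cells, and cDC1-like cells 6.30% and 14.3%, while macrophage-like cells held 23.6% and 11.4%. Neutrophil-like cells held 31.3% of WT and 18.2% of Clec7a-/- Cebpb UMIs, and monocyte-like cells 21.7% and 37.2%. Of the UMIs of all genes, monocyte-like cells held 19.5% and 19.2%. Cebpd stayed with neutrophil-like cells, at 44.1% and 41.3%. For Id2 the mature DC-like share was 17.9% and 34.0%.

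**Figure D4:**
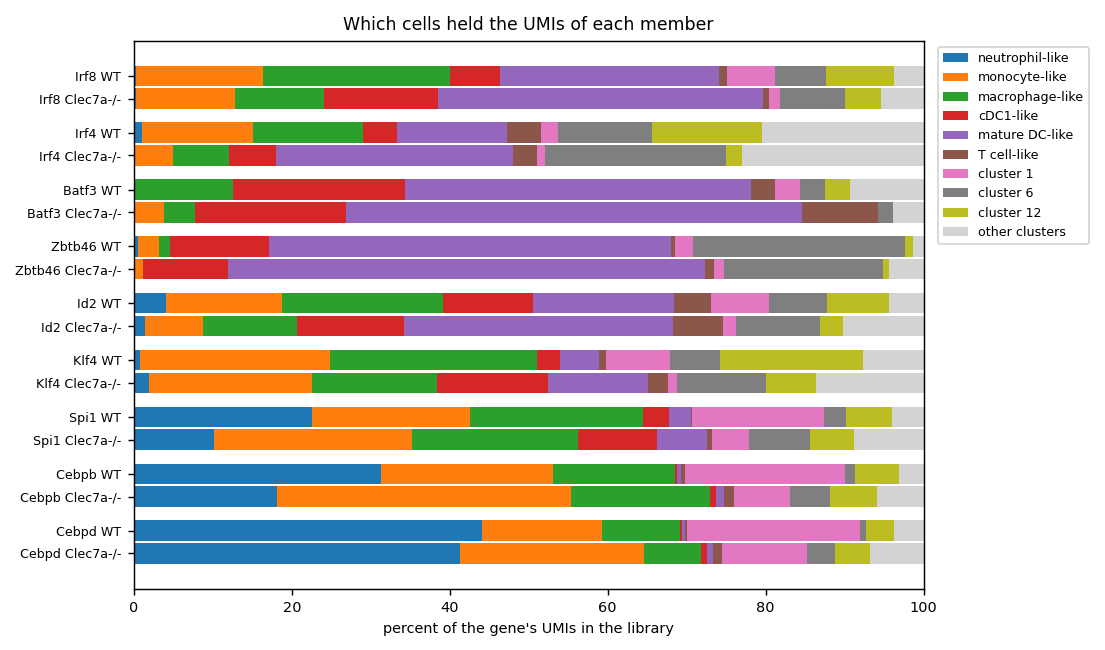
Percent of the UMIs of each member (x axis, 0 to 100) that fell in each class or cluster (colours), with a bar for each library of each gene (y axis) and grey for all other clusters. Mature DC-like cells made up 50.9% of Zbtb46 UMIs in WT cells and 60.5% in Clec7a-/- cells, and neutrophil-like cells 31.3% and 18.2% of Cebpb UMIs.

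Across the 17 clusters with at least 50 cells, with both libraries summed, the members fell into sets by their profiles. The correlations describe clusters that share libraries, depth and cells' lineage, and carry no test. Cebpb and Cebpd had a Pearson r of 0.91, and Spi1 had 0.69 with Cebpb and 0.70 with Cebpd. Batf3 and Id2 had 0.86, Irf8 and Id2 0.83, Batf3 and Zbtb46 0.79, and Irf8 and Zbtb46 0.70. Between the sets r was negative, -0.91 for Irf8 with Cebpd, -0.91 for Batf3 with Cebpb and -0.90 for Id2 with Cebpb. Klf4 had 0.75 with Irf8 but 0.20 with Batf3 and 0.24 with Zbtb46.

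**Figure D5:**
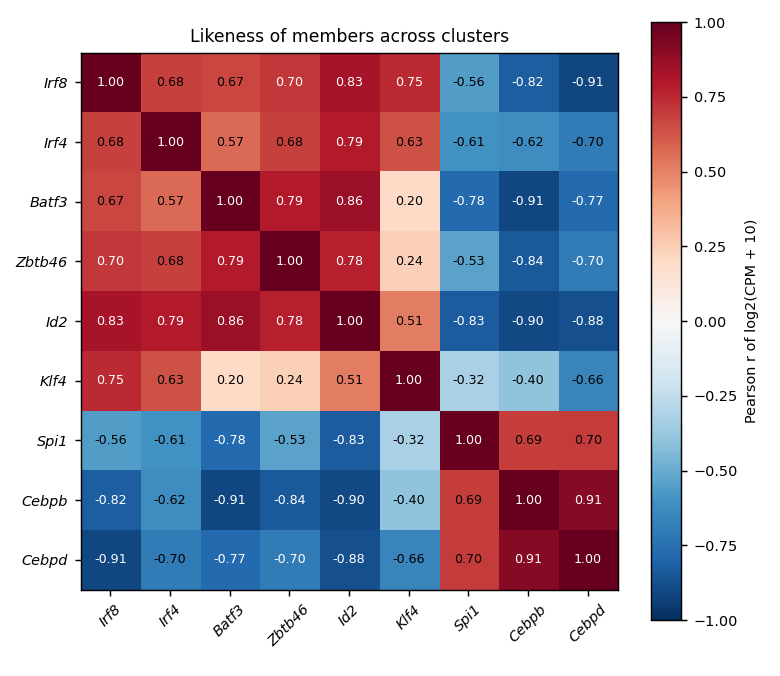
Pearson r of log2(CPM + 10) between members (both axes) across 17 clusters, written in each cell and coloured from blue at -1 to red at 1. Irf8, Irf4, Batf3, Zbtb46 and Id2 had positive values among themselves and negative values with Spi1, Cebpb and Cebpd.

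The ratio of Irf8 to Cebpb UMIs rose from neutrophil-like cells to the DC classes. T cell-like cells, with 15 and 12 Irf8 UMIs and 68 and 89 Cebpb UMIs, are left out of this order. Since these genes had opposite profiles in the same cells, the ratio restates their levels. It was 0.000824 and 0.00308 in neutrophil-like cells, 0.0709 and 0.0760 in monocyte-like cells and 0.146 in macrophage-like cells of both libraries. In cluster 6 it was 0.453 and 0.377. It passed 1 in the DC classes, at 2.33 (1.59 to 3.46) and 4.28 (3.17 to 5.87) in cDC1-like cells and 4.47 (3.56 to 5.66) and 8.87 (6.98 to 11.4) in mature DC-like cells. Since the genes differ in capture, the value 1 has no meaning of its own.

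In single cells thinned to 1000 UMIs, cells with both members of a pair were counted beside the number expected from the separate shares. In mature DC-like cells, Id2 and Irf8 were both seen in 36 WT cells, where 32.9 would be expected if they were unrelated, and in 69 Clec7a-/- cells, where 70.0 would be. Irf8 and Zbtb46 were both seen in 12 Clec7a-/- mature DC-like cells against 9.39. These counts are given without an interval, and Id2 was seen in most mature DC-like cells, so no association is read from them.

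The genes most like each member in this measure, among 4656 genes with at least 500 UMIs, were as follows. For Irf8 they were Hax1 and Rapgef2 (r = 0.97) and Fbxw11 (0.96), and for Zbtb46 Gm13546 (0.98), Cacnb3 (0.97), which was a marker of the mature DC-like class, and Rras2 (0.96). For Batf3 they were Gnb4 and Traf4 (0.96) and Laptm4b (0.95), for Irf4 Snhg15 (0.86), Gpr183 (0.84) and Cenpl (0.83), and for Id2 Bpnt1, Tbrg1 and Psmb8 (0.95). Cebpb was closest to Itgam, which encodes the CD11b used in the sort, to Plaur and to Fth1 (0.98 each). Cebpd was closest to Kansl1l, Tmem38b and Ckap2l (0.98 each), Spi1 to Lyn (0.94), Tlr13 (0.895) and Efhd2 (0.885), and Klf4 to Utp15 (0.93), Commd6 and Hsd17b12 (0.92). With a pseudocount of 1 in place of 10, 14 of these 27 names left the closest 3, including all 3 of Batf3 and of Zbtb46, and nothing is drawn from them about shared control.

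A list of 50 related transcription factors shows the members among their families. With the libraries summed, the genes named next had a highest class at least 4 times the median class. Relb, an NF-κB subunit of mature DCs, was highest in mature DC-like cells at 426 CPM, and so was Spib at 30.9 CPM. Irf5 (305 CPM) and the ETS repressor Etv3 (1150.2 CPM) were highest in cDC1-like cells. Cebpa (293 CPM), Bhlhe41 (128 CPM) and Pparg (12.8 CPM) were highest in macrophage-like cells. Tfec (137 CPM) and Nr1h3 (41.8 CPM) were highest in monocyte-like cells. In neutrophil-like cells Mxd1 (2861 CPM), Ets2 (1985 CPM), Klf2 (584 CPM), Id1 (270 CPM), Bcl6 (174 CPM) and Cebpe (8.30 CPM), a factor of late granulocyte maturation, were highest. Maf (571 CPM), Tcf12 (118 CPM), Gfi1 (66.2 CPM), Tcf3 (51.5 CPM) and Batf (41.7 CPM) were highest in T cell-like cells. Of the C/EBP genes, Cebpa was thus highest in macrophage-like cells and Cebpb, Cebpd and Cebpe in neutrophil-like cells.

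Between the libraries, 49 of the 50 were measured over all cells, and 7 were higher and 3 lower in the Clec7a-/- library. In neutrophil-like cells 36 were measured, 5 higher and 1 lower, in monocyte-like cells 42, 7 and 1, in macrophage-like cells 43, 1 and 1, in cDC1-like cells 29, 4 and 1, in mature DC-like cells 31, 0 and 5, and in T cell-like cells 30, 1 and 2. By the same rule, 12.4% of all genes measured were higher and 5.29% lower over all cells. These shares were 9.7% and 5.81% in neutrophil-like, 3.84% and 3.65% in monocyte-like and 2.97% and 3.48% in macrophage-like cells. They were 6.23% and 3.97% in cDC1-like, 3.25% and 4.5% in mature DC-like and 3.06% and 3.76% in T cell-like cells. Related factors past 2-fold are given by name. In cDC1-like cells Id1 stood at 15.0 and 48.2 CPM (8 and 37 UMIs) and Ikzf1 at 16.8 and 48.2 CPM (9 and 37 UMIs). Runx1 stood at 28.0 and 70.3 CPM (15 and 54 UMIs) and Elf1 at 44.9 and 91.1 CPM (24 and 70 UMIs). Mxd1 was lower there at 181 and 88.5 CPM (97 and 68 UMIs). In mature DC-like cells Ikzf1 was lower at 19.1 and 6.999 CPM, on only 14 and 8 UMIs. Zeb2, a factor of monocytes and of some DCs, was lower at 55.9 and 23.6 CPM (41 and 27 UMIs). In monocyte-like cells Id3, an inhibitor of E proteins like Id2, was higher at 12.9 and 42.0 CPM (31 and 61 UMIs). In neutrophil-like cells Etv6 stood at 64.1 and 140.3 CPM (103 and 62 UMIs) and Maf at 16.2 and 47.5 CPM (26 and 21 UMIs). Klf13 stood there at 32.4 and 11.3 CPM (52 and 5 UMIs). All 3 compare cells of different clusters and depth as given above. In T cell-like cells Irf2 stood at 46.9 and 131 CPM (8 and 31 UMIs) and Etv3 at 111 and 42.1 CPM (19 and 10 UMIs).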

How the data were processed

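Single-cell RNA-seq was analysed for 1 WT and 1 Clec7a-/- library of sorted CD11b+ and CD11c+ cells. For each, the authors deposited a matrix of UMI counts, whole numbers that were not normalized. The submitters' processing notes name Cell Ranger 2.1.1 and mm10. The methods name the SeekOne MM 3′ kit, the labels' description names 10x Genomics, and the labels give the AOM amount in mg per g where the methods give μg. The labels' age of 26 weeks is above the age reached by AOM at 6 to 7 weeks and 16 weeks of treatment. The members and lists were chosen with earlier results of these data known.

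The study's filter was applied (200 to 4000 genes detected, mitochondrial share up to 5%), which leaves 12283285 WT and 7559096 Clec7a-/- UMIs. With Seurat 5.3.0 in R 4.3.3, counts were log-normalized to 10000, and cells clustered on 2000 variable features and 20 components at resolution 2 with seed 1, without batch correction. Features left out the members, related transcription factors and sex-linked genes. A cluster was named from the marker list with the most markers 2-fold up and detected in at least 25% of cells. The list needed at least 4 such markers and at least 1 marker in the top 10 genes of the cluster. It also needed more markers in the top 10 than any other list, so that a tie left the cluster unnamed. Scrublet in scanpy 1.11.5 called 1 of 6547 barcodes, so no doublets were removed.

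UMIs were summed per class and library in Python 3.11.15 (pandas 2.3.3, numpy 2.4.6, scipy 1.17.1, matplotlib 3.10.9). Classes with at least 50 cells per library were compared. The ratio step was tested on simulated data. Genes named are the members, the 3 genes most like each, and related factors past 2-fold between libraries in a class or with a highest class at least 4 times the median class, and 1 of 51 listed related genes had no unique row. The values of 1 related gene are not reported here. Alternatives were other cell filters, cluster settings, reciprocal PCA, marker-score classes, a mean over cells, TMM from edgeR 4.0.16 and a fold of 2. Gene positions are from GENCODE M21 and promoters from RefSeq.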

Additional observations from a re-analysis of the deposited data

How the results depend on the processing

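With 1 library per genotype, the limits are the lack of replicates, the few UMIs of Irf4 and Batf3, and the split of neutrophil-like clusters between libraries. No paired analysis was possible because each genotype has 1 library. Removing cells by their Scrublet score (the top 5%), and removing barcodes found in both libraries, were chosen after seeing the data. Where a value changed, the cause was not tested.

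Of the log2 ratios over all cells, Irf8 was 0.70 as a mean over cells and 0.68 with TMM, Id2 was 0.31 with TMM, and Spi1 was -0.077 with TMM. Cebpb was -0.57 with a limit of 10% mitochondrial UMIs, -0.14 as a mean over cells and -0.56 with TMM. Cebpd turned to 0.086 as a mean over cells. Of the members past the rule over all cells (5), a fold of 2 left 1. In neutrophil-like cells (0) there was 1 with 10 components and 1 without the top Scrublet scores, and in monocyte-like cells (0) there was 1 with the 10% limit and 1 at resolution 3. In macrophage-like cells (1) there were 2 with the 10% limit, and 0 with other limits on detected genes, at resolution 1, with 10 or 30 components, without shared barcodes, as a mean over cells, with TMM, with marker-score classes and with a fold of 2. In cDC1-like cells (2) there was 1 with other limits on detected genes, 10 components, reciprocal PCA or a fold of 2, and 0 as a mean over cells. The count does not name the members, and in these cells Klf4 was under 1.5-fold with the 10% limit and Irf8 with marker-score classes. In mature DC-like cells (1) there were 0 with the 10% limit, 30 components, reciprocal PCA, marker-score classes or a fold of 2, and 4 as a mean over cells. In T cell-like cells (0) there was 1 at resolution 3, with reciprocal PCA or marker-score classes, and 2 as a mean over cells.

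The Cebpd ratio in macrophage-like cells turned to 0.10 with the 10% limit, 0.35 with reciprocal PCA and 0.11 without the top Scrublet scores. The log2 level of Id2 in T cell-like cells over the next class, 0.03 from the mean of the libraries' CPM, turned to -0.35 with the 10% limit, -0.23 at resolution 3, -0.064 with 10 components, -0.315 with reciprocal PCA, -0.0901 as a mean over cells and -0.25 with marker-score classes. That of Klf4 in monocyte-like cells, 0.16 from the same mean, turned to -0.70 with the 10% limit, -0.36 with other limits on detected genes, -0.0348 at resolution 1, -0.54 with reciprocal PCA, -0.52 without the top Scrublet scores and -0.105 with marker-score classes. Of the other values, 599 were counted as within their counting interval or 1.5 times the main count and 39 as moved. Some ratios not listed above also changed sign beyond the counting interval of the main value. In macrophage-like cells the Klf4 ratio ran from -0.59 to 0.45 and the Id2 ratio from -0.11 to 0.32. The Id2 ratio in T cell-like cells ran from -0.75 to 0.10. The T cell-like class had under 50 cells in a library without the top Scrublet scores, and Irf4 in macrophage-like and Irf8 in T cell-like cells had under 20 UMIs in 3 and 4 settings. Scrublet's own calls, on 1 barcode, were not run as an alternative.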
